A study of Homo sapiens with 12 samples.

Results

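Integrins are cell surface receptors built from 1 alpha and 1 beta chain, and the genes described here are the 10 integrin chains ITGA2, ITGA3, ITGA5, ITGA6, ITGAV, ITGB1, ITGB3, ITGB4, ITGB5 and ITGB8. They were taken by gene symbol from the 60664 genes counted. The rule itself uses no measured value, but the chains on it were chosen with earlier results of these data known, and other integrin chains were left out. All 10 passed the filter on low counts and were tested among 17544 genes. RNA was sequenced from MDA-MB-231, an established human triple-negative breast cancer line labelled as wild type, with 4 libraries in each of 3 groups. The groups differed in the pH of the medium, which was set at 7.4, 6.9 or 6.4 for 24 h after the cells had grown at pH 7.4 in high-glucose medium with serum. The labels name the intermediate medium pH 6.9, whereas the treatment protocol gives it as pH 6.7, and the label is used below. The libraries are labelled as repeats and nothing states separate cultures, so every p-value measures the spread between these libraries, which may be technical.

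The alpha and beta chains join before they reach the membrane, and the pair decides the ligand. Pairs of ITGA5 with ITGB1, and of ITGAV with several beta chains, bind the short RGD motif of fibronectin, vitronectin or the latent form of the growth factor TGF-beta. ITGA3 and ITGA6 form laminin receptors, and ITGA2 forms a collagen receptor with ITGB1. Inside the cell many beta tails, though not all, bind talin and kindlin and so link the matrix to actin. ITGB4 is an exception, because its long tail anchors keratin filaments at hemidesmosomes. In carcinoma cells these receptors are known for their parts in attachment, migration and survival.

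Total counts lay between 21060767 and 50643233 per library, and between 17841 and 27384 genes were detected. The fewest genes were found in pH 7.4 repeat 1. On an axis over 9749 abundant genes, where 0 and 1 are the means of pH 7.4 and pH 6.4 taken without the library being placed, the libraries at pH 7.4 spanned 0.0141 to 0.109. At pH 6.9 they spanned 0.228 to 0.378 and at pH 6.4 they spanned 0.485 to 1.30, with pH 6.4 repeat 3 the lowest of its medium. Markers of the line (VIM, CD44, ANXA1, CAV1) were each at 595 CPM (TMM-scaled counts relative to library size) or more in every library, while the estrogen receptor ESR1 did not exceed 0.278 CPM and the progesterone receptor PGR did not exceed 0.0236 CPM. Of the other markers taken as low in this line, CDH1 did not exceed 3.16 CPM, but EPCAM had 14.8 to 24.3 CPM and ERBB2, the third receptor behind the triple-negative label, 66.8 to 97.6 CPM.

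At pH 6.4 the fibronectin receptor chain ITGA5 and the vitronectin receptor chain ITGB3 were 2.03-fold and 2.48-fold higher than at pH 7.4, and ITGB8, which activates latent TGF-beta together with ITGAV, was lower. The other 7 chains did not pass the test. By edgeR's quasi-likelihood test with Benjamini-Hochberg adjustment over all tested genes at 0.05, 3 of the 10 chains were called, beside 30.3% of all tested genes. Of these, 2 were higher, beside 15.6% of all genes, and 1 was lower, beside 14.7%. The share of chains called was thus near that of all genes. The chains had a median log2 change of 0.10 and a median size of change of 0.12, against 0.34 for the size over all tested genes. These sizes were not matched for level. All chains but ITGB3 (percentile 49.2) and ITGB8 (43.1) lay between percentiles 95.5 (ITGAV) and 99.8 (ITGB1) of mean CPM among tested genes. The libraries of the media did not overlap for 3 chains, ITGA5, ITGA6 and ITGB3, beside 27.9% of all genes. All 3 were higher at pH 6.4, beside 14.4% of all genes. DESeq2 called 4 chains and limma voom 2, and with the replicate number as a block edgeR called 5.

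In pH 6.9 against pH 7.4, 0 of the 10 chains were called by edgeR, as by DESeq2 and by limma voom, and 2 had an unadjusted p under 0.05. Of all genes 0.724% were called, 0.313% higher and 0.410% lower. ITGB4 alone had groups apart, higher at pH 6.9, beside 10.1% of all genes, of which 5.18% were higher and 4.91% lower. In pH 6.4 against pH 6.9, ITGA5 and ITGB3 were called higher, 2 of 10, where 17.0% of all genes were called, 8.83% higher and 8.20% lower. With the block, 3 chains and 5456 genes were called there, against 2988 genes without it. Only ITGA5 of the 10 chains had groups apart there, beside 20.4% of all genes, of which 9.64% were higher and 10.8% lower. The contrasts share libraries, so they are not independent of each other. In bulk RNA, fewer cells of a kind and less RNA per cell cannot be told apart.

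**Figure D1:**
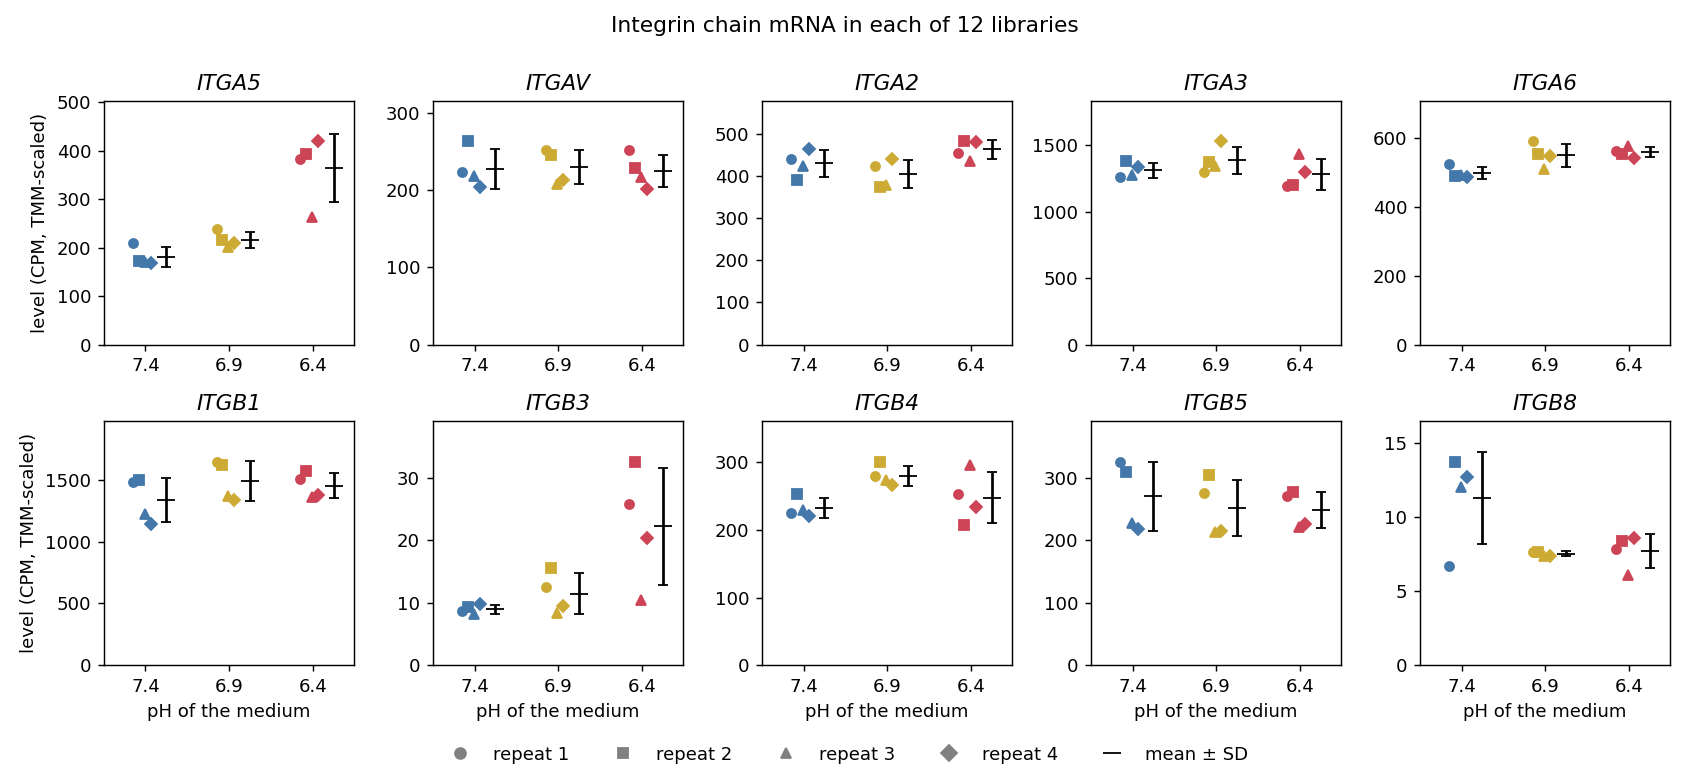
Level of each integrin chain in CPM (counts scaled to library size with TMM; the vertical axes start at 0) in every library, by pH of the medium. Symbols mark the repeat, and the bars beside them show the mean and SD of 4 libraries. ITGA5 and ITGB3 are raised at pH 6.4, with repeat 3 the lowest of that medium in both, and ITGB8 is low in pH 7.4 repeat 1.

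ITGA5 (ENSG00000161638; chr12:54395261-54419460 on the minus strand, GENCODE 29 on GRCh38) encodes the alpha chain of the main fibronectin receptor. In repeats 1 to 4 it had 210.3, 171, 170.3 and 168 CPM at pH 7.4, 238, 215, 200.01 and 208 CPM at pH 6.9, and 382, 394, 263 and 419 CPM at pH 6.4. All 4 pH 6.4 libraries were above every library of the other media, and pH 6.4 repeat 3 was the lowest of them. The mean was 364 ± 69.6 CPM at pH 6.4 and 179.9 ± 20.3 CPM at pH 7.4 (SD, n = 4 each). The log2 change was 1.02 with SE 0.13 and a 95% interval of 0.75 to 1.29 (fold 2.03, edgeR adjusted p = 8.81e-05). It was called under each of 20 other settings, with log2 changes between 0.93 and 1.15. Within repeats 1 and 2 it was 1.03 (edgeR adjusted p = 0.000476), and within repeats 3 and 4 it was again 1.03 (edgeR adjusted p = 0.0291).

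Against pH 6.9, ITGA5 was higher at pH 6.4 by 0.76 with SE 0.13 (edgeR adjusted p = 0.00376). That call was lost within repeats 3 and 4 alone, where the log2 change was 0.76 (edgeR adjusted p = 0.213). At pH 6.9 against pH 7.4 the log2 change was 0.26, with an interval of -0.01 to 0.53 (edgeR adjusted p = 0.448), and the libraries overlapped. Set against the midpoint of the outer media, ITGA5 at pH 6.9 lay 0.25 lower on the log2 scale (edgeR adjusted p = 0.411). By edgeR 0 of 17544 genes departed from that midpoint, with 2025 at an unadjusted p under 0.05, 102 called by DESeq2 and 0 by limma voom. Without pH 6.4 repeat 3, 1109 genes departed from it, ITGA5 by -0.31 (edgeR adjusted p = 0.0288) and ITGB4 by 0.27 (edgeR adjusted p = 0.0285) among them. Of 23 other settings this was the only 1 that called either chain against the midpoint.

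Sequence from the RefSeq table of GRCh38.p14 is shown for the start of ITGA5, as the called chain with the smallest adjusted p, beside ITGB1, its partner that was not called, and ITGB8, the chain that was lower. Each stretch is 5′ to 3′ on the strand of its gene. For ITGA5 the stretch outside annotated exons (56 bases, chr12:54419461-54419516, minus strand) and a site of 27 bases (chr12:54419256-54419282, minus strand) are given. The others are 248 bases of ITGB1 (chr10:32958233-32958480, minus strand) and 52 bases of ITGB8 (chr7:20330650-20330701, plus strand), and capitals mark motif matches on either strand.
ITGA5 upstream: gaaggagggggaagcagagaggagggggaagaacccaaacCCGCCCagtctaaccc
ITGA5 site: ctccccgcgtTGAGTCAttcgcctctg
ITGB1 upstream: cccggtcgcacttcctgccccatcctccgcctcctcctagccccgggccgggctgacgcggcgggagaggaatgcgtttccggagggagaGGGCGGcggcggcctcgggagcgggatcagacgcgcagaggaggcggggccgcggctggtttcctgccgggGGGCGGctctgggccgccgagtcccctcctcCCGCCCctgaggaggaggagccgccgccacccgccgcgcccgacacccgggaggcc
ITGB8 upstream: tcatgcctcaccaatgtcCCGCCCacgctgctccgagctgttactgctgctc
Windows of 250 bases before to 50 after a RefSeq start were found for 7 of the 10 chains, 12 windows in all. ITGA3, ITGB3 and ITGB4 had no window and so were not searched. They were searched on both strands for the AP-1 site, spelled TGANTCA. The GC box was searched as GGGCGG and the E-box as CACGTG. The TATA box was searched as TATAAA and the cyclic AMP response element as TGACGTCA, which does not hold the AP-1 letters. The ITGA5 site above, starting at position -6 from the RefSeq start, was the single AP-1 match among the 12 windows, and 7.71% of 35116 windows in the table hold one. It lies within an exon of a longer annotated ITGA5 transcript. The GC box, marked in the ITGA5, ITGB1 and ITGB8 stretches, is held by 45% of windows. A further ITGB1 window, not shown, held no GC box and 3 TATA box matches. A match is a description of letters and says nothing of binding.

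ITGB3 (ENSG00000259207; chr17:47253846-47311816, plus strand) encodes the beta chain that joins ITGAV in a vitronectin receptor and, in platelets, joins ITGA2B in the fibrinogen receptor. Its level was low, with 8.65, 9.26, 8.19 and 9.83 CPM at pH 7.4 in repeats 1 to 4. At pH 6.9 it had 12.5, 15.5, 8.29 and 9.48 CPM, and at pH 6.4 it had 25.9, 32.6, 10.4 and 20.3 CPM. The pH 6.4 libraries all lay above those of pH 7.4, but repeat 3 did so by a small margin. These values rest on 442 to 1509 counts at pH 6.4 and on 176 to 448 counts at pH 7.4. The mean was 22.3 ± 9.37 CPM at pH 6.4 and 8.98 ± 0.716 CPM at pH 7.4 (SD, n = 4 each), a log2 change of 1.31 with SE 0.28 and an interval of 0.72 to 1.90 (edgeR adjusted p = 0.00287).

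ITGB3 was called in 19 of 20 other settings. Within repeats 1 and 2 its log2 change was 1.71 (edgeR adjusted p = 0.000562), and within repeats 3 and 4 it was 0.77 (edgeR adjusted p = 0.141). Against pH 6.9 the change was 0.96 with SE 0.27 (edgeR adjusted p = 0.0283), the libraries overlapped, and 10 of 20 other settings kept the call. It was lost without any one of 6 libraries, namely pH 6.4 repeats 1, 2 and 4 and pH 6.9 repeats 1, 3 and 4, with log2 changes between 0.72 and 1.00. Another annotated gene, AC068234.1, shares 2266 exon bases, 51.6% of those of ITGB3, on the same strand and had 0 counts in all 12 libraries. The sources used here do not say how reads in shared bases were counted, so the level of ITGB3 is uncertain. Platelet markers were at or near 0, with PF4, PPBP and GP9 together at 0.207 CPM or less in every library.

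ITGB8 (ENSG00000105855; chr7:20330702-20415754, plus strand) encodes a beta chain that joins ITGAV and binds the latent TGF-beta complex. It had 6.71, 13.7, 12.01 and 12.7 CPM at pH 7.4, 7.64, 7.66, 7.39 and 7.40 CPM at pH 6.9, and 7.85, 8.35, 6.08 and 8.56 CPM at pH 6.4. Repeats 2, 3 and 4 at pH 7.4 were above all libraries of the acid media, whereas repeat 1 at pH 7.4 was among the lowest of the 12. That library also had the fewest detected genes. The log2 change in pH 6.4 against pH 7.4 was -0.55 with SE 0.19 and an interval of -0.96 to -0.14 (edgeR adjusted p = 0.0426), close to the threshold. Without pH 7.4 repeat 1 it was -0.73 (edgeR adjusted p = 0.00185). Without any one of the other 7 libraries of these media the call was lost, with log2 changes between -0.60 and -0.44 and edgeR adjusted p between 0.0584 and 0.131. At pH 6.9 against pH 7.4 the change was -0.58 (edgeR adjusted p = 0.206), and without pH 7.4 repeat 1 it was -0.76 (edgeR adjusted p = 0.0283). Of 20 other settings this was the only 1 that called ITGB8 in pH 6.9 against pH 7.4. The acid media differed from each other by 0.03 with an interval of -0.38 to 0.45 (pH 6.4 against pH 6.9).

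ITGAV (chr2:186590065-186680901, plus strand), the alpha chain shared by ITGB3, ITGB5 and ITGB8, had means of 228 ± 25.3 CPM at pH 7.4, 230.0 ± 22.6 CPM at pH 6.9 and 225 ± 21.3 CPM at pH 6.4 (SD, n = 4 each). Its log2 change in pH 6.4 against pH 7.4 was -0.02, with an interval of -0.23 to 0.19 (edgeR adjusted p = 0.921). ITGB5 (chr3:124761948-124901418, minus strand), the beta chain of another vitronectin receptor, had 326, 310.4, 228 and 219 CPM at pH 7.4 in repeats 1 to 4. At pH 6.9 it had 275, 305, 213 and 215 CPM, and at pH 6.4 it had 271, 277, 221 and 227 CPM. Repeats 1 and 2 exceeded repeats 3 and 4 within every medium, and the media overlapped. The log2 change of ITGB5 was -0.12, with an interval of -0.44 to 0.20 (edgeR adjusted p = 0.587).

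**Figure D2:**
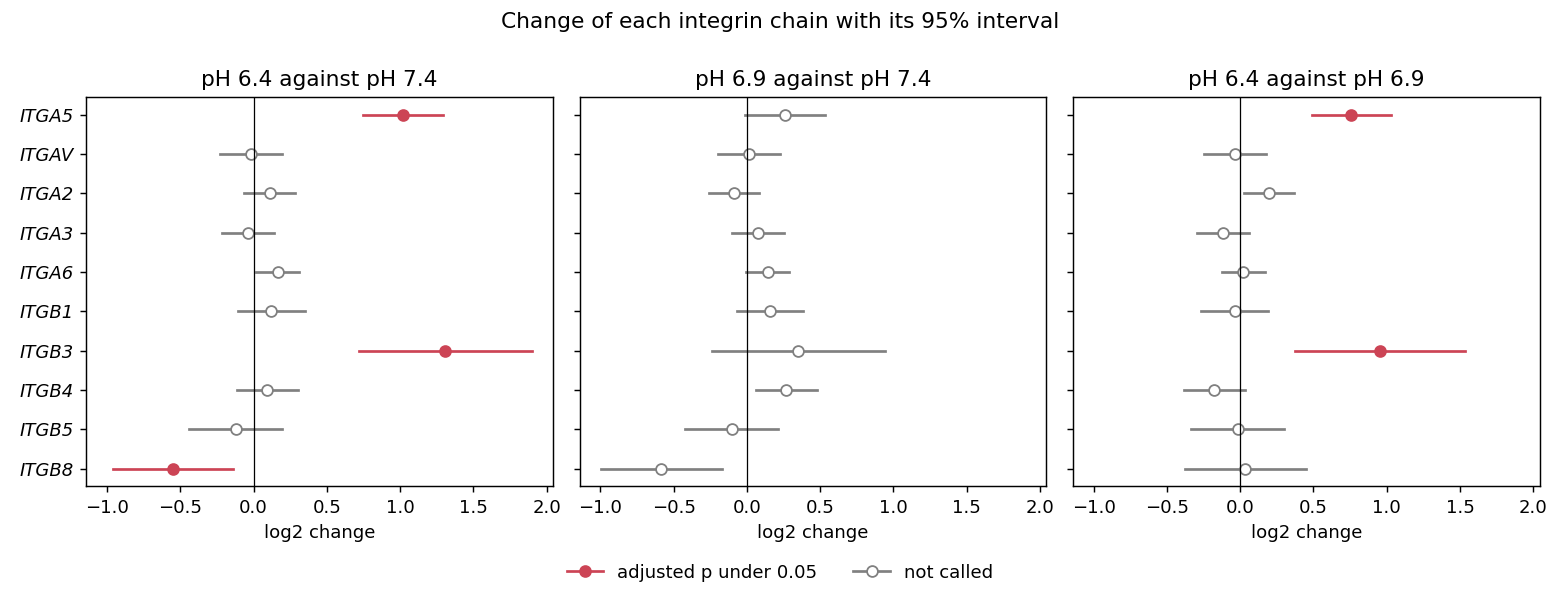
Log2 change of each integrin chain with its 95% interval from edgeR, for pH 6.4 against pH 7.4, pH 6.9 against pH 7.4 and pH 6.4 against pH 6.9. Filled points passed an adjusted p of 0.05. ITGA5 and ITGB3 lie at 1.02 and 1.31 in the left panel, ITGB8 at -0.55, and no point is filled for pH 6.9 against pH 7.4.

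Among the laminin receptor chains, ITGA6 (chr2:172427354-172506282, plus strand), which pairs with ITGB1 or ITGB4, had 526, 490.4, 493 and 487 CPM at pH 7.4. At pH 6.9 it had 592, 556, 510.2 and 548 CPM, and at pH 6.4 it had 564, 555, 579 and 542 CPM. Each pH 6.4 library was above each pH 7.4 library by a small margin. The log2 change was 0.17 with SE 0.07 and an interval of 0.02 to 0.31 (edgeR adjusted p = 0.0806). It passed in DESeq2 (adjusted p = 0.0225) and with the replicate block (0.17, edgeR adjusted p = 0.0146), and with the library size as the only scaling it was 0.09 (edgeR adjusted p = 0.399). ITGA3 (chr17:50055968-50090481, plus strand), the alpha chain of a receptor for laminins of the epithelial basement membrane, ranged from 1193 to 1438 CPM at pH 6.4 and from 1259 to 1381 CPM at pH 7.4. Its log2 change was -0.04, with an interval of -0.21 to 0.14 (edgeR adjusted p = 0.791).

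ITGB4 (chr17:75721328-75757818, plus strand), the hemidesmosome chain, is described with all its values because it was the single chain whose pH 6.9 libraries stood apart from pH 7.4. It had 224, 254, 230.3 and 220.4 CPM at pH 7.4, 279, 301, 274 and 266 CPM at pH 6.9, and 253, 208, 297 and 234 CPM at pH 6.4. All pH 6.9 libraries were above all pH 7.4 libraries. The test was not passed, with a log2 change of 0.27 and an interval of 0.06 to 0.48 (edgeR adjusted p = 0.258). At pH 6.4 its libraries spread more, and against pH 7.4 the change was 0.09 (edgeR adjusted p = 0.507). Against pH 6.9 it was -0.18 (edgeR adjusted p = 0.240), and without pH 6.4 repeat 3, the highest of its medium, it was -0.27 (edgeR adjusted p = 0.0227). Of 20 other settings this was the only 1 that called ITGB4 in pH 6.4 against pH 6.9.

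ITGA2 (chr5:52989326-53094779, plus strand), the collagen receptor chain, had 457, 484, 436 and 482 CPM at pH 6.4, against 425, 376, 379 and 442 CPM at pH 6.9. ITGA2 was higher at pH 6.4 in 4 of 4 same-numbered pairs, as were ITGA5 and ITGB3. This count was not set beside that of all genes and carries no test. The labels give no such pairing, and the libraries of these media overlapped. The log2 change between these media was 0.20, with an interval of 0.02 to 0.37 (edgeR adjusted p = 0.107). With the replicate block it was 0.20 and passed (edgeR adjusted p = 0.0164), in 1 of 20 other settings. Against pH 7.4, where it had 441, 392, 425 and 466 CPM, the change was 0.11 with an interval of -0.06 to 0.28 (edgeR adjusted p = 0.336).

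ITGB1 (chr10:32900319-33005792, minus strand) is the partner of most alpha chains here. It had 1507, 1575, 1359 and 1379 CPM at pH 6.4, against 1486, 1499.7, 1222 and 1147 CPM at pH 7.4. As for ITGB5, repeats 1 and 2 were above repeats 3 and 4 in both of these media and at pH 6.9, where the values were 1646, 1620.4, 1369 and 1337 CPM. The log2 change in pH 6.4 against pH 7.4 was 0.12, with an interval of -0.11 to 0.35 (edgeR adjusted p = 0.434). With the replicate block it was 0.13 and passed (edgeR adjusted p = 0.0455). Its pseudogene ITGB1P1 held at most 0.305% as many counts as ITGB1 in any library. Antisense genes share 42 exon bases with ITGB1, 48 with ITGA5, 98 with ITGB8, 203 with ITGAV and up to 174 per antisense gene with ITGA6, and the antisense genes that overlap exons of these chains had at most 254 counts in a library.

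Levels of different chains were compared per exon length, as TPM (counts per base of exon, scaled to the same total in every library). At pH 7.4 ITGB1 led with 835 ± 123 TPM, followed by ITGA3 with 502 ± 27.9, ITGA6 with 286 ± 11.5 and ITGA2 with 204 ± 13.2 TPM (SD, n = 4 each). The first 3 steps down this order were larger than the spread, as their libraries did not overlap. Neighbours overlapped from ITGA2 through ITGB5 with 157 ± 33.9, ITGB4 with 129 ± 9.93 and ITGAV with 104 ± 13.1 TPM to ITGA5 with 88.8 ± 10.3 TPM. ITGB3 with 7.66 ± 0.672 TPM and ITGB8 with 2.79 ± 0.784 TPM were far below and overlapped neither ITGA5 nor each other.

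At pH 6.4 ITGA5 stood in rank 5 with 172 ± 29.7 TPM, against rank 8 at pH 7.4, and overlapped ITGB5 with 139 ± 17.1 TPM. The order depends on the length used. By the longest transcript ITGA5 stood in rank 4 at pH 6.4, above ITGA2, and in rank 7 at pH 7.4, above ITGAV. By that length ITGB5 with 174 TPM also stood above ITGA2 with 154 TPM at pH 7.4. The shares that follow were taken by exon length only. ITGA5 made up 13.7% ± 2.60 of the TPM of the 5 alpha chains at pH 6.4 and 7.50% ± 0.796 at pH 7.4, while ITGA3 made up 37.3% ± 3.13 at pH 6.4 and 42.4% ± 1.63 at pH 7.4 (SD, n = 4 each). ITGB1 held 74.9% ± 1.11 of the beta chains at pH 6.4 and 73.8% ± 0.368 at pH 7.4, and ITGB3 held 1.55% ± 0.581 at pH 6.4 and 0.688% ± 0.120 at pH 7.4. The 10 chains summed to 2315 ± 194 TPM at pH 7.4, 2491 ± 165 TPM at pH 6.9 and 2422 ± 114 TPM at pH 6.4, with overlapping ranges. The same ITGB3 counts were also divided by the length of the exon bases shared with no other gene. This gave 15.8, 20.2 and 37.4 TPM at pH 7.4, 6.9 and 6.4, and ITGB3 kept rank 9. No reads were recounted, so the overlap with AC068234.1 stays unresolved.

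**Figure D3:**
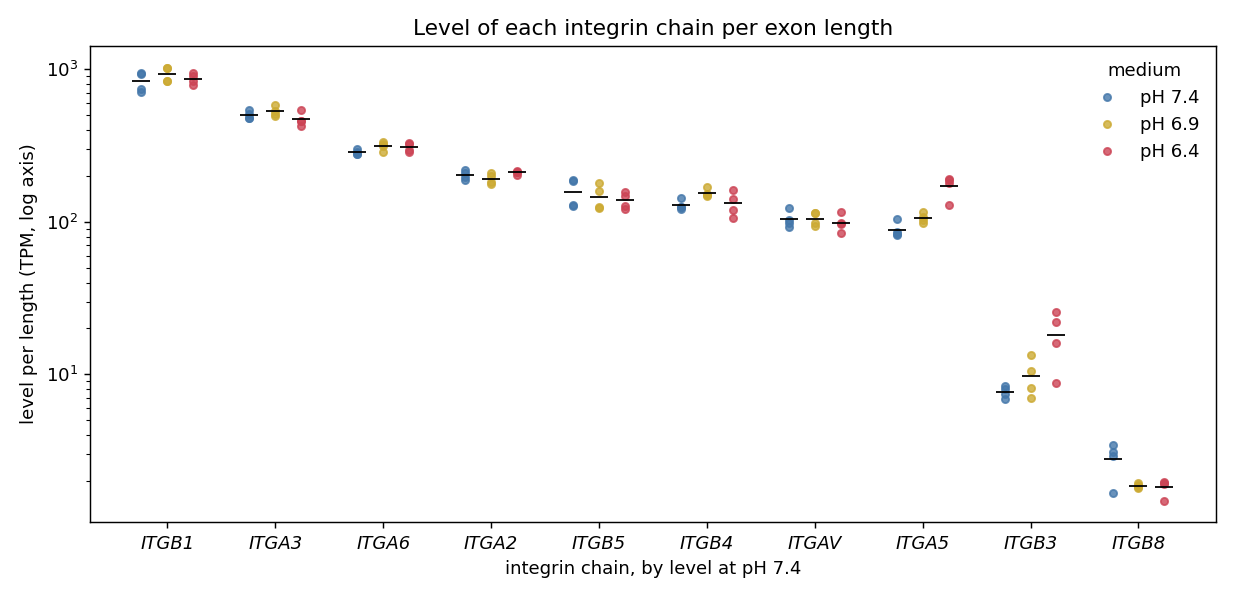
Level of each integrin chain per exon length, in TPM on a log axis, with a point per library and a dash at the mean of 4 libraries, in order of the level at pH 7.4. ITGB1 is highest in every medium, ITGB3 and ITGB8 lie far below the rest, and ITGA5 reaches 172 TPM at pH 6.4.

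For each of 9 known pairs, the log2 ratio of the alpha to the beta count was taken within each library, which needs no scaling between libraries. The ratio of ITGA5 to ITGB1 was -1.98, -2.00, -2.37 and -1.72 at pH 6.4, against -2.82, -3.13, -2.84 and -2.78 at pH 7.4. The mean was -2.02 ± 0.27 at pH 6.4, against -2.89 ± 0.16 at pH 7.4 (SD, n = 4 each). The media did not overlap, and the ratio was higher in every pH 6.4 library. It is not separate from the change of ITGA5 (log2 1.02), as ITGB1 changed by 0.12 and was not called. How many other gene pairs stand apart in this way was not counted. The ratio of ITGAV to ITGB3 was 3.28, 2.81, 4.38 and 3.31 at pH 6.4, against 4.69, 4.83, 4.73 and 4.38 at pH 7.4, and the media touched through pH 6.4 repeat 3. The ratio of ITGAV to ITGB8 had a mean of 4.87 ± 0.27 at pH 6.4, against 4.38 ± 0.47 at pH 7.4, and overlapped. The other 6 pairs overlapped between pH 6.4 and pH 7.4, with differences of means between -0.17 and 0.09. These ratios were not tested and say nothing of the amount of paired protein.

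**Figure D4:**
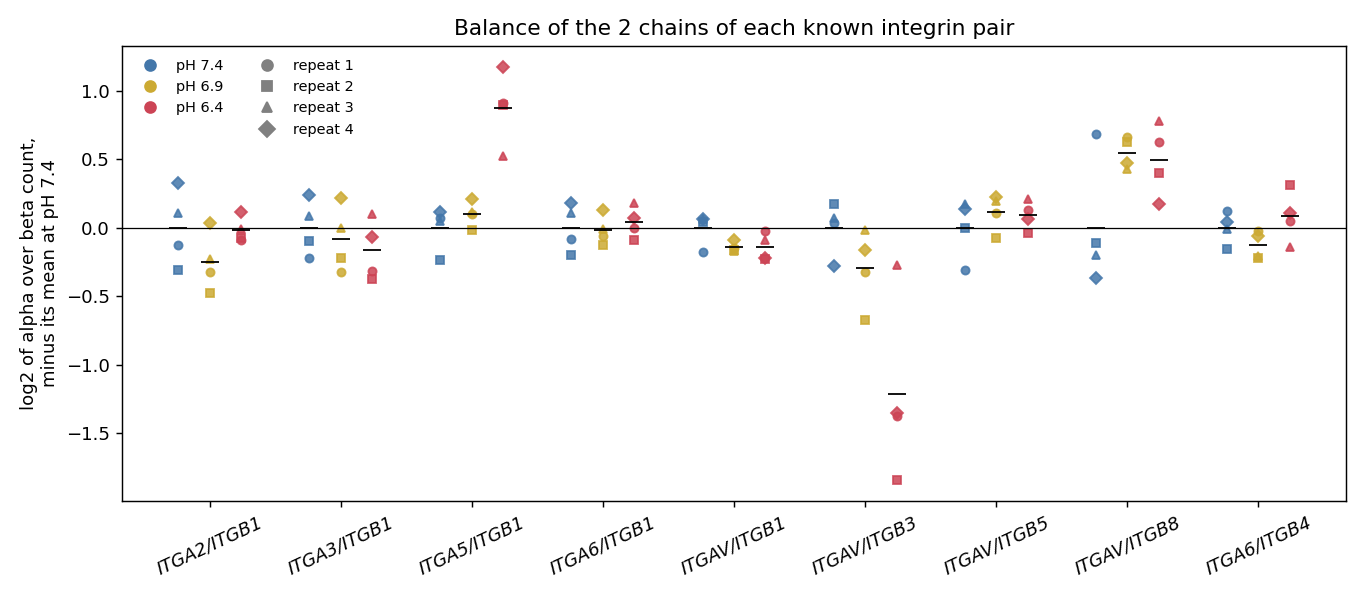
Log2 ratio of the alpha to the beta count of each known integrin pair in every library, less the mean of that pair at pH 7.4, so that 0 marks the balance at pH 7.4. Colours mark the medium, symbols the repeat and dashes the mean. The pair of ITGA5 and ITGB1 has a mean 0.88 higher at pH 6.4 with no overlap, and that of ITGAV and ITGB3 a mean of -1.21, with repeat 3 inside the pH 7.4 range.

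For the 3 called chains, the genes with the most similar course over the 12 libraries were sought among 10907 genes, by the root mean square difference of centred log2 CPM. Nearest to ITGA5 were SEMA4B at 0.0787, ELK4 at 0.0949 and TIMP1 at 0.0956, where ITGA5 itself varied by 0.461 around its mean. Nearest to ITGB3 were DUSP5 at 0.158, PGM3 at 0.211 and YPEL2 at 0.213, where ITGB3 varied by 0.652. Nearest to ITGB8 were RNF144B at 0.191, SRFBP1 at 0.194 and AVPI1 at 0.202, where ITGB8 varied by 0.357, so its neighbours followed it less closely for its range. The 3 chains were chosen for their change, and these values carry no test.

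Genes that work with integrins were taken from 5 lists, and each count for pH 6.4 against pH 7.4 stands beside the 30.3% of all genes called. Within repeats 3 and 4 alone, 1528 genes were called in all, 821 higher and 707 lower, and the counts given for those repeats are read against these. Of 26 matrix proteins and latent TGF-beta genes that integrins bind, 23 were tested, and 13 were higher and 5 lower in pH 6.4 against pH 7.4, with a median log2 change of 0.36, against -0.00 for all tested genes. FN1, the fibronectin bound by ITGA5, had 1739 ± 437 CPM at pH 6.4 and 864 ± 228 CPM at pH 7.4, with a log2 change of 1.01 and SE 0.22 (edgeR adjusted p = 0.00319). The matricellular thrombospondin THBS1 rose by 0.36, the matricellular CCN1 by 0.61 and the laminin chain LAMC1 by 0.55. VTN, the vitronectin bound through ITGB3 and ITGB5, did not pass the filter on low counts. Within repeats 3 and 4 this list gave 5 higher and 4 lower.

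Of the talin, kindlin and adaptor genes 6 of 21 tested were higher and 1 lower (22 listed), with a median of 0.14. Talin TLN1, which activates integrins through the beta tail, rose by 0.28, the actin crosslinker ACTN1 by 0.37 and the focal adhesion kinase PTK2 by 0.31, while the tensin TNS3 fell by 0.84. With pH 6.4 repeat 4 left out, 1 of these genes was higher, and with pH 6.4 repeat 2, pH 7.4 repeat 2 or pH 7.4 repeat 3 left out, 2 were. Scaling by library size alone gave 3, as did a fit of only these media and one without the 2 libraries with the fewest genes, and within repeats 3 and 4 there was 1. With the replicate block 10 were higher and 3 lower, and with a term for repeats 1 and 2 against 3 and 4 these were 7 and 3. Of 13 tested inhibitors, activators and trafficking genes (15 listed) 2 were higher, namely NUMB (0.41), an adaptor of integrin endocytosis, and the small GTPase RAP1A (0.25). In the same list 3 were lower, among them SNX17 (-0.27), which recycles ITGB1, and ITGB1BP1 (-0.20), which competes with talin. Leaving out single libraries gave 1 to 3 higher and 1 to 3 lower, and within repeats 3 and 4 there were 0 of each. With the replicate block 4 were higher and 3 lower. The median of this list was 0.04 and turned to -0.04 with library size as the only scaling.

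Of 13 hemidesmosome genes and lateral partners 3 were higher and 0 lower, with a median of 0.08. The higher genes were the integrin-associated protein CD47 (0.32), the tetraspanin CD82 (0.69) and the urokinase receptor PLAUR, which had 121 ± 34.6 CPM at pH 6.4 and 58.3 ± 7.88 CPM at pH 7.4 (log2 1.05, SE 0.17, edgeR adjusted p = 0.000500). With the replicate block, as with the term for repeats, 3 genes of this list were higher and 2 lower, within repeats 1 and 2 these were 4 and 2, and within repeats 3 and 4 they were 1 and 0. Of the 16 other integrin chains 7 passed the filter. The collagen receptor chain ITGA10 was higher, with 57.4, 56.1, 46.5 and 48.8 CPM at pH 6.4, against 24.2, 35.2, 23.2 and 24.3 CPM at pH 7.4 (log2 0.96, SE 0.15, edgeR adjusted p = 0.000383). ITGAE, the partner of ITGB7 in T cells, had a log2 change of -0.41 (edgeR adjusted p = 0.0163), and ITGB6 had -1.77 (edgeR adjusted p = 0.0379) at a level under 1 CPM in every library. Leaving out single libraries gave 1 to 2 of these other chains higher and 0 to 2 lower. In pH 6.9 against pH 7.4, where 0.724% of all genes were called, the 5 lists held 1 lower gene, the matrix protein TNC, and 1 higher, CD82 (log2 0.46, edgeR adjusted p = 0.0411). The hemidesmosome list kept a higher call in 1 of 8 fits that left out a single library, the one without pH 7.4 repeat 1, and the ligand list kept a lower call in 6 of 8, not without pH 7.4 repeat 1 or pH 6.9 repeat 2. Without the 2 libraries with the fewest genes, neither list held a call.

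**Figure D5:**
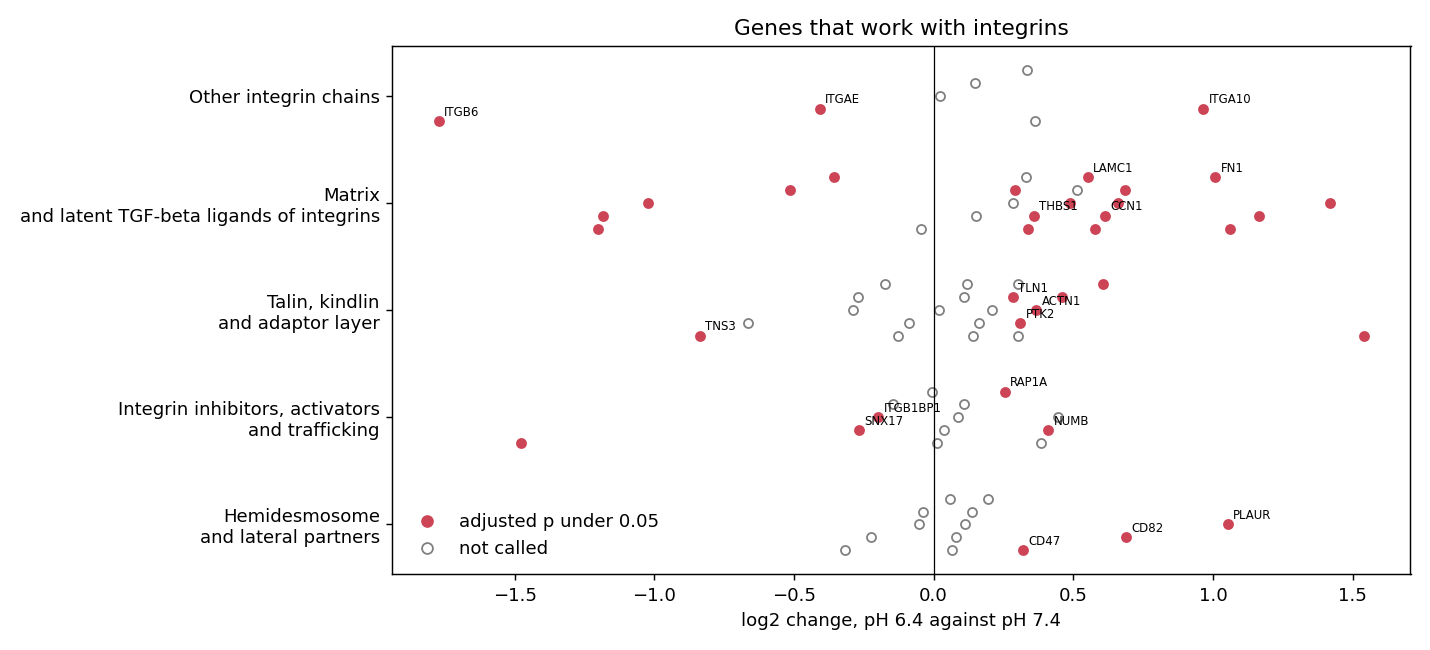
Log2 change in pH 6.4 against pH 7.4 of each tested gene in 5 lists of genes that work with integrins. Filled points passed an adjusted p of 0.05, and names mark the genes described. The ligands hold 13 filled points right of 0 and 5 left of it.

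Sums of luminal epithelial, fibroblast and leukocyte markers were lower at pH 6.4 than at pH 7.4, while the endothelial sums overlapped. Summed over 4 luminal epithelial markers (KRT8, KRT18, CDH1, EPCAM), libraries ranged from 877 to 1043 CPM at pH 6.4 and from 1307 to 1650 CPM at pH 7.4. KRT8 (503 to 974 CPM over all 12 libraries) and KRT18 (358 to 664 CPM) made up most of this sum. The 4 fibroblast markers summed to 9.69 to 16.4 CPM at pH 6.4 and to 27.4 to 34.7 CPM at pH 7.4, with DCN at or near 0 in all 12 libraries. PDGFRB and LUM made up nearly all of this sum, whereas PDGFRA had means of 0.180 CPM at pH 6.4 and 0.140 CPM at pH 7.4. The 5 leukocyte markers summed to 1.95 to 3.24 CPM at pH 6.4 and to 4.42 to 7.03 CPM at pH 7.4, with CD3E at 0 in all 12 libraries. CD14 made up most of that sum, with means of 2.08 CPM at pH 6.4 and 4.36 CPM at pH 7.4. The 4 endothelial markers summed to 13.4 to 17.7 CPM at pH 6.4 and to 9.19 to 17.3 CPM at pH 7.4. Their part in the results on the integrin chains was not tested.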

How the data were processed

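Messenger RNA of 12 libraries, 4 per medium, was measured by sequencing poly(A) RNA with a stranded kit, per the labels' protocols. The authors deposited 1 table of raw counts per gene. Reads were aligned with STAR and counted with featureCounts against GRCh38.p13 (hg38), as the submitters' processing notes list them. The sources used here give no version of either tool, nor how strand and overlapping genes were handled, so counts of overlapping genes are uncertain. Genes without a symbol held at most 0.424% of the counts of a library.

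Counts were filtered with filterByExpr, which left 17544 of 60664 genes, and scaled with TMM. Robust quasi-likelihood tests of edgeR 4.0.16 (R 4.3.3) had a term for each medium and took in the 12 libraries, leaving 9 residual degrees of freedom. The biological coefficient of variation was 0.198. Calls required an adjusted p (Benjamini-Hochberg) below 0.05. CPM are TMM-scaled. TPM used exon lengths of GENCODE 29, matched for 58396 genes; the other genes held at most 0.062% of counts. Pair ratios added 0.5 to each count, and pattern likeness used genes averaging 5 CPM or more. The test was tried on simulated counts first.

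Same-numbered libraries deviated together in every pair of pH 6.4 with pH 7.4 (r between 0.113 and 0.262) and of pH 6.4 with pH 6.9 (0.264 to 0.470), but not in every pair of pH 6.9 with pH 7.4 (0.0798 to 0.352). Differently numbered libraries of different media correlated as well, at 0.124 to 0.247 within repeats 1 and 2. Within repeats 3 and 4 these values were 0.157 to 0.241. Only for pH 6.4 with pH 6.9 did every same-numbered value exceed all of these. For pH 7.4 with the other media, pairing by number was not separated from a split of repeats 1 and 2 against 3 and 4. Still, 10 of 12 libraries correlated best with one of their own number. The pairing comes from these correlations, not from the labels, and block values stand beside results of the first comparisons where they change a call.

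Alternatives were DESeq2 1.42.0, limma voom (limma 3.58.1), other scalings and filters, other designs, and leaving out libraries. All 66 pairs of libraries differed in at least 22391 genes. The members, gene lists and tests were chosen with earlier results of these data known. From each list up to 4 called genes with the highest mean CPM were named, and for pattern likeness the 3 nearest genes of each of the 3 called chains. The length of ITGB3 without shared bases and the counts of lists under the alternatives were added after seeing the data.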

Additional observations from a re-analysis of the deposited data

Results flagged for a closer look

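In 30 sets of 4 libraries, 1 for each integrin chain and medium, the highest or lowest library was compared with its nearest neighbour by the gap over the whole range, as in Dixon's test at its 95% critical value. In 2 sets it lay farther out than that, where chance gives about 1 in 20. Both are pH 7.4 repeat 1, the library with the fewest detected genes. ITGA5 was at 210.3 CPM there, against 168 to 171 CPM in the other 3 pH 7.4 libraries. ITGA6 was at 526 CPM, against 487 to 493 CPM in the other 3. Both values are the highest of their medium, and without that library the log2 change of ITGA5 in pH 6.4 against pH 7.4 was 1.10.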

How the results depend on the processing

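With a replicate block, 5 integrin chains were called in pH 6.4 against pH 7.4, where ITGA6 and ITGB1 were added, and 5456 genes in pH 6.4 against pH 6.9, where ITGA2 was added. The block changed no other call of a chain. In the comparisons with pH 7.4 the numbers were not shown to pair the libraries, so the added ITGA6 and ITGB1 calls rest on an uncertain pairing. Across the media 10 of all 12 libraries correlated best with one of their own number, a hint from the data. With the block 947 genes were called in pH 6.9 against pH 7.4, 0 chains among them, and the ligand list held 7 higher and 3 lower.

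For pH 6.4 against pH 7.4 the chains called numbered 1 within repeats 3 and 4 and 2 to 3 with single libraries left out, and all genes called 1528 and 3795 to 6411. For pH 6.9 against pH 7.4 they numbered 0 to 1 with single libraries left out. All genes called there were 559 by DESeq2, 201 with no filter on low counts, 614 with a term for repeats 1 and 2 against 3 and 4, 250 with only the groups compared, 7 within repeats 1 and 2, 0 within repeats 3 and 4, 20 without the 2 libraries with the fewest genes and 39 to 80 with single libraries left out.

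For pH 6.4 against pH 6.9 the chains called numbered 1 by limma voom, with no filter and with only the groups compared, 0 within repeats 3 and 4, and 1 to 3 with single libraries left out. All genes called were 4818 with the term for repeats, 1906 within repeats 1 and 2, 0 within repeats 3 and 4 and 1171 to 4944 with single libraries left out. For pH 6.9 against the midpoint, chains called numbered 0 to 2 and all genes 0 to 1109 with single libraries left out, and all genes were 102 by DESeq2 and 13 with no filter. The cause of these shifts was not tested, except that settings within 2 repeats hold fewer libraries.

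With library size alone, 40.4% of calls in pH 6.4 against pH 7.4 were higher, where TMM gave 51.4%, and in pH 6.4 against pH 6.9 these were 38.2% and 51.9%. Of 830 recomputed log2 changes of chains 0 reversed a call, and 45, none over 0.0893 in size, changed sign with neither value called. Of the other chain values with no test, 24 of 33 levels per length moved by more than their SD with another length, and 1 of 30 CPM levels moved with library size scaling, while 27 pair ratios did not. Depth limits ITGB3 and ITGB8, which rest on 176 to 1509 counts.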

Other observations

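The 5 ligands that were lower in pH 6.4 against pH 7.4 were named after their values were seen. The tenascin TNC, a ligand of ITGAV receptors, had 101 ± 5.70 CPM at pH 6.4, 161 ± 19.1 CPM at pH 6.9 and 229 ± 13.7 CPM at pH 7.4 (SD, n = 4 each), and its log2 change from pH 7.4 was -1.18 at pH 6.4 (edgeR adjusted p = 2.13e-06). The fibrillin FBN1 changed by -1.02, the collagen chains COL1A2 by -1.20, COL6A1 by -0.52 and COL1A1 by -0.36 (edgeR adjusted p = 0.0491). None of the laminin chains was called lower, and LAMA3, a chain of laminin-332, was higher by 1.16 (edgeR adjusted p = 7.63e-05).

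Of the 16 other integrin chains 9 did not pass the filter on low counts. ITGA4, a chain of leukocyte integrins, and ITGA8 had 0 counts in all 12 libraries.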
